A study of Mus musculus with 22 samples.

Results

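The promoters described here carried H3K4me3 in mouse embryonic stem cells (ESC), lost it in the neural progenitors derived from them (NPC), and stayed below a set H3K27me3 level in NPC. They were chosen by their measured values. CPM, counts per 1e6 counts of a library, had to be at least 45 for H3K4me3 in both ESC libraries and below 15 in both NPC libraries, with H3K27me3 below 50 CPM in both NPC libraries. Of 24467 windows of 5000 bp, each around an annotated transcription start site, 8804 met the ESC minimum and 137 also fell below the H3K4me3 limit in NPC. H3K27me3 stayed below its limit at 97 of those 137, which are the members, and reached it in both NPC libraries at 34 and in only 1 at 6. The 97 windows lie at 90 separate loci, because 14 of them overlap another member and so share its reads.

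The data are CUT&RUN counts, from an assay in which an antibody brings a nuclease to its target and the DNA cut loose there is sequenced. Both cell types were C57BL/6 mouse cells with the genotype given as untagged, Tir1 and the treatment as untreated, so they share the Tir1 background and no group without it is compared here. ESC were grown in N2B27 medium with LIF, CHIR99021 and PD0325901. To make NPC, these ESC received bFGF (10 ng/mL, 72 h) followed by the Hedgehog agonist SAG (500 nM, 48 h). Antibodies against H3K4me3, H3K27me3, SUZ12, JARID2 and MTF2 had 2 libraries per cell type and IgG had 1.

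H3K4me3 is laid down around the start sites of active and poised genes. It is kept at CpG-rich promoters partly through proteins that bind unmethylated CpG, while at CpG-poor promoters it follows transcription more closely. Polycomb repressive complex 2 (PRC2), with SUZ12 as a core subunit and MTF2 or JARID2 as accessory subunits, writes H3K27me3 mainly at CpG-rich promoters of silent developmental genes. Genes of the naive pluripotent state are switched off when ESC differentiate, with or without Polycomb marking.

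Promoter sequences were matched for 53 of the 97 members (54.6%), taking the RefSeq promoters of GRCm38.p6, which run from 250 bases before to 50 after a start site, within 50 bp of the window's start site. Because fewer than 80% of members have a sequence, a comparison of sequence content for the whole set is void, and the values that follow describe these 53 promoters only. The 7 printed here run from 1 to 28 CpG, and Fam169b and C330004P14Rik, not printed, have 0. They read 5′ to 3′ on the gene strand, with every CpG in capitals.
Platr10, 1 CpG, chr3:75655682-75655981, minus strand: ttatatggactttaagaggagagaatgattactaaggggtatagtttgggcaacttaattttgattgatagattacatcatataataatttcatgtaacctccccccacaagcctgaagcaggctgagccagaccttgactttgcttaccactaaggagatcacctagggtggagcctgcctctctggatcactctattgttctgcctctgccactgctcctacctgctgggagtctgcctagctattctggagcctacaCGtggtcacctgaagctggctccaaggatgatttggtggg
Spp1, 3 CpG, chr5:104435942-104436241, plus strand: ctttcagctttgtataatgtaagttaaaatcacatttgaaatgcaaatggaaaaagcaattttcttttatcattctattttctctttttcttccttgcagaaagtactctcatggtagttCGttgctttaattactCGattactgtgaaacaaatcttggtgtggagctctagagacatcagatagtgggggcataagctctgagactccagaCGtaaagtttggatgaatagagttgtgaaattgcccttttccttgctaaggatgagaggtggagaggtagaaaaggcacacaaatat
EU599041, 4 CpG, chr7:43213789-43214088, plus strand: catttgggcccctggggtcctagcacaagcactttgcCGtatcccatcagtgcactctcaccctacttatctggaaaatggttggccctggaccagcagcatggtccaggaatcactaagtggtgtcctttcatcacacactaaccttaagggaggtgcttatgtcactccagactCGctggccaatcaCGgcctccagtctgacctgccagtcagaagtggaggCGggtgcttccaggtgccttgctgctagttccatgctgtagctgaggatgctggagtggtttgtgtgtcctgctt
Zfp936, 6 CpG, chr7:43177340-43177639, plus strand: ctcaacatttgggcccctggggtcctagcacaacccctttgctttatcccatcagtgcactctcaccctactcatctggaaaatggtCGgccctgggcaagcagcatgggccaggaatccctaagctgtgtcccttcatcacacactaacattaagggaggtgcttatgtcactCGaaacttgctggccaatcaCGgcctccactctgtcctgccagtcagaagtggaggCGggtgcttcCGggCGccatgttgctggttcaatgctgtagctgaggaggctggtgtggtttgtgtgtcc
Tcl1, 11 CpG, chr12:105222688-105222987, minus strand: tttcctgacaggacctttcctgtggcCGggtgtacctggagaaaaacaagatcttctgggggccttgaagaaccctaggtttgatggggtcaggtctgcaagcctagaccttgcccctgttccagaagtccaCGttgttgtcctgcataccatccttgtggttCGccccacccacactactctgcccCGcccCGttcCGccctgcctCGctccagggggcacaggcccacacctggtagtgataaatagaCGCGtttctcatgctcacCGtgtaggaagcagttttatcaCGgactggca
Hormad2, 16 CpG, chr11:4441033-4441332, minus strand: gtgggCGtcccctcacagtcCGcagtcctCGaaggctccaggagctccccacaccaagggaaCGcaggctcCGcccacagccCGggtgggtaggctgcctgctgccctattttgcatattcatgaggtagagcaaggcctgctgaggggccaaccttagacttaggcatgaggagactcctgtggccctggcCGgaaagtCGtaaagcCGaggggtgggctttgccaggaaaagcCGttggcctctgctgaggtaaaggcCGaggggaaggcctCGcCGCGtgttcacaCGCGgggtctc
1700028I16Rik, 28 CpG, chr10:82811873-82812172, plus strand: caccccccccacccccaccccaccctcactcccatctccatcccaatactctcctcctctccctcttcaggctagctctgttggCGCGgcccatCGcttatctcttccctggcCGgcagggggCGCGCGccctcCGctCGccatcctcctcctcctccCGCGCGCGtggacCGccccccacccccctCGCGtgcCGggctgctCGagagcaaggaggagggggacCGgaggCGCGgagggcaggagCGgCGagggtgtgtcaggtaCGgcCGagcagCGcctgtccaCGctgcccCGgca

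CpG was scarce in most of the matched promoters. The median was 5 CpG per 300 bases (quartiles 3 and 8, range 0 to 28), against 24 in the 5750 matched promoters of windows that kept H3K4me3 at 45 CPM or more in all 4 libraries and 13 in the 16935 matched promoters of all windows. The 22 matched promoters of the 34 windows that lost H3K4me3 and reached 50 CPM of H3K27me3 had a median of 11. CpG observed over expected, the CpG count divided by that expected from the C and G content, had a median of 0.26 in the members, 0.53 in those 22, 0.84 where H3K4me3 was kept and 0.57 over all windows. It reached 0.6 in 4 of 53 members (7.55%), Ooep, Gpx7, 1700028I16Rik and Pgpep1l, against 40.9%, 87.6% and 47.6% of the other groups in that order. G and C together made up a median of 53.7% of bases in the members and 56.0% over all windows. CpG count and ESC H3K4me3 level had a Spearman correlation of -0.09 across the 53 promoters, a description over promoters that come from the same libraries.

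**Figure D1:**
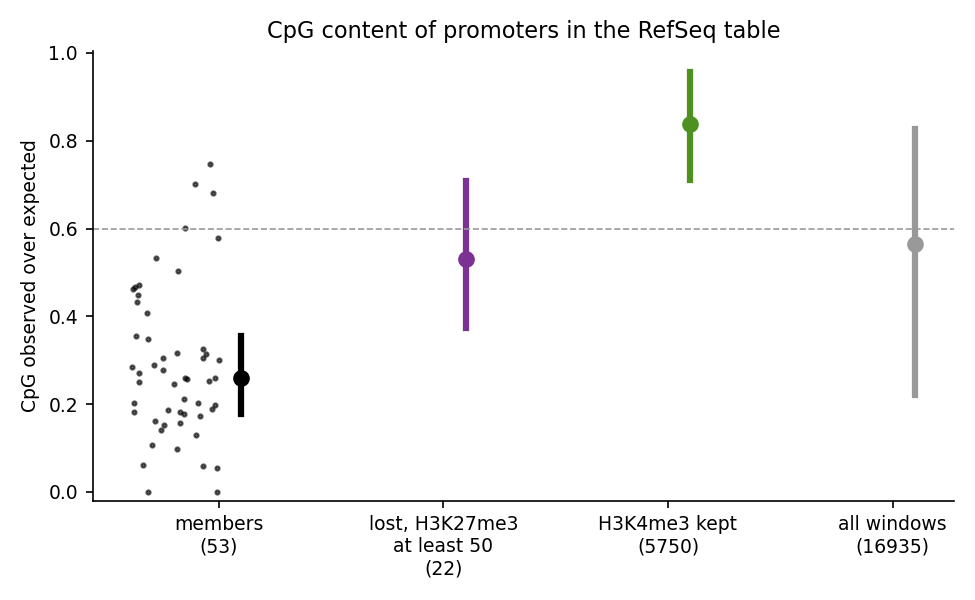
CpG observed over expected in 300-base promoters of the RefSeq table, with the number of matched promoters in parentheses; small points are the 53 matched members, and large points and bars are medians and quartiles of each group. The member median of 0.26 lies below the medians of 0.53 (H3K4me3 lost with H3K27me3 of at least 50 CPM), 0.84 (H3K4me3 kept) and 0.57 (all windows), and the dashed line marks 0.6.

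Several members carry near copies of the same sequence. Among 1378 pairs of the 53 promoters, 5 shared at least 1 stretch of 20 identical bases. Gm14124, Gm14139 and Zfp345, which lie on chromosome 2, shared from 105 to 175 such stretches, counted with overlap, per pair. Gm13154 and Gm13242, listed in RefSeq as the zinc-finger genes Zfp985 and Zfp980, shared 64. Zfp936 and EU599041, 36451 bp apart on chromosome 7, shared 38, and the similarity can be read in their lines above. Reads of such copies can be placed on the wrong one, so levels of these genes are uncertain. Gm14139, Gm13154 and some others named in this and later paragraphs for their position or sequence were chosen after their values were seen.

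The octamer ATTTGCAT, the letters bound by POU factors such as OCT4, was found on either strand in 4 of the 53 promoters (7.55%) and in 1.74% of all 32851 promoters of the RefSeq table. Spp1, which encodes the secreted phosphoprotein osteopontin, holds it, and the other three are the related sequences of Gm14139, Gm14124 and Zfp345. The 4 matches are therefore not independent of each other. Each is shown with 30 bases on either side and with the octamer, read here from its opposite strand, in capitals.
Spp1, chr5:104435952-104436019, plus strand: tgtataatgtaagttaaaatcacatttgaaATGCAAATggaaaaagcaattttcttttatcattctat
Gm14139, chr2:150181540-150181607, plus strand: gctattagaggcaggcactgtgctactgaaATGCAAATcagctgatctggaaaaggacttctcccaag
Gm14124, chr2:150257299-150257366, plus strand: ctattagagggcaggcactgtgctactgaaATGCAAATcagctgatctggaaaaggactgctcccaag
Zfp345, chr2:150485243-150485310, minus strand: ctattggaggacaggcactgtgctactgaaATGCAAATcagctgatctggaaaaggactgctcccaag
The short motif CCAAT, bound by NF-Y, was in 49.1% of the matched members and 37.4% of the table, and GGGCGG, bound by SP and KLF factors, in 32.1% and 35.7%. CCAAT also lies in sequence shared between members, such as Zfp936 and EU599041, so its matches are not all independent either. CCGGAAG, bound by ETS factors, was in 7.55% and 8.86%, TATAAA in 7.55% and 13.6%, CACGTG in 5.66% and 7.15%, and GCGCATGC, the core bound by NRF1, in 3.77% and 2.71%. No match was found in the members for TCAAGGTCA (ESRRB), GGCGGGAA (E2F) or TTCCNGGAA (STAT3), which occur in 0.423%, 2.192% and 1.15% of the table. All were searched on both strands. Such matches are descriptions of letters in these windows.

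By gene type, RefSeq lists 65 members (67.0%) as protein coding, 21 (21.6%) as long non-coding RNA (lncRNA) and 7 (7.22%) as miRNA, where all windows have 83.7%, 8.52% and 4.84%. Of 12 windows of Platr genes, pluripotency-associated transcripts, 5 met the ESC minimum and 4 of these (Platr4, Platr10, Platr14 and Platr17) are members. Zinc-finger names (by the file or by RefSeq) were held by 8 members (8.25%, against 1.70% of windows): Gm13154, Gm13242, Gm13247, LOC101056073, Zfp345, Zfp750, Zfp936 and Zim3. Chromosome 7 held 17 members (17.5%, against 8.99% of windows), chromosome 4 held 11 (11.3%, against 5.95%) and the X chromosome none, where 4.36% of windows lie.

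H3K4me3 chose the members, so its values are given without a test. Fold differences of mean CPM, ESC over NPC, ran from 4.33 to 50.2 with a median of 10.9. The library medians were 68.8 and 65.7 CPM in ESC and 7.97 and 7.0 in NPC, against 26.3, 24.3, 23.9 and 23.1 over all windows. Mean ESC levels reached 100 CPM at 22 members and stayed below 60 at 35, and mean NPC levels were below 5 CPM at 25. Log2 ESC levels of the members had a Pearson correlation of 0.982 between the ESC replicates.

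**Figure D2:**
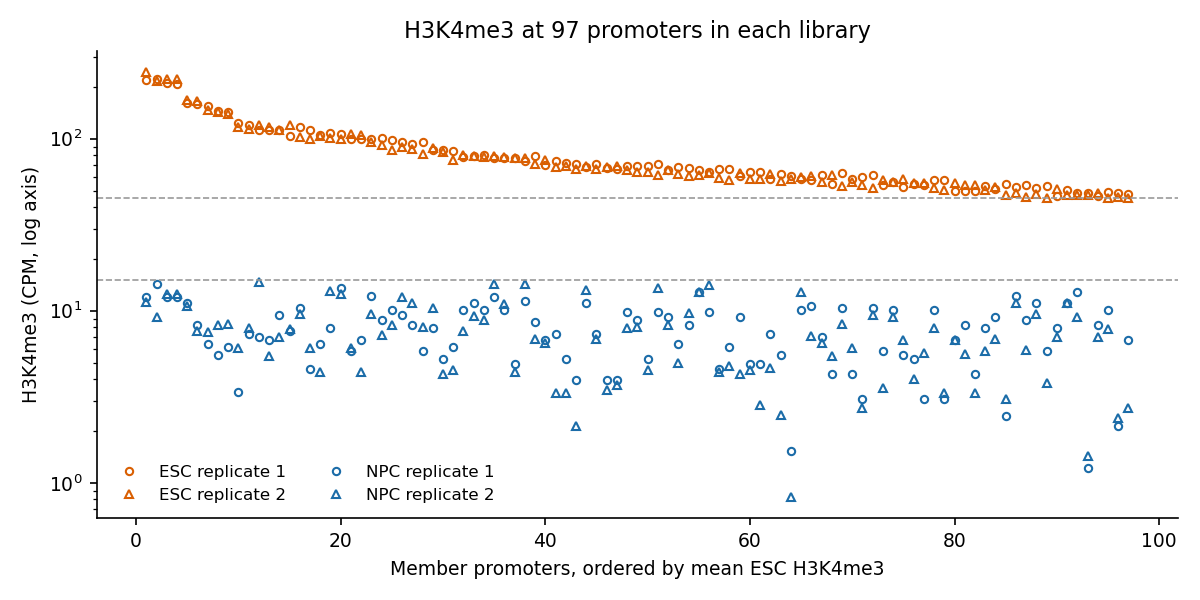
H3K4me3 in CPM (log axis) at the 97 members, ordered by mean ESC level; each symbol is 1 library, orange for ESC and blue for NPC, circles for replicate 1 and triangles for replicate 2, and dashed lines mark the limits of 45 and 15 CPM that chose the members. Levels run up to 244 CPM in ESC and down to 0.831 CPM in NPC, and the gap between the lines is empty by the choice.

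The naive pluripotency list had 36 windows, of which 31 met the ESC minimum, 6 are members, 3 (Pou5f1, Tdgf1 and Tdh) lost H3K4me3 with at least 50 CPM of H3K27me3 and 9 kept H3K4me3. Over the whole list 33 of 36 windows passed the edgeR test toward lower H3K4me3 in NPC and 1 toward higher, where 29.2% and 26.7% of all tested windows did; the members among them had to. Fbxo15 encodes an F-box protein used as a reporter of the pluripotent state. Its H3K4me3 was 221 and 216 CPM in the ESC libraries and 14.4 and 9.26 in NPC, so NPC replicate 1 lay near the limit. Gdf3, a TGF-beta family ligand of the Nodal type, had 162 and 168 CPM in ESC and 11.03 and 10.7 in NPC. Dppa2 and Dppa4 encode SAP-domain partners that act at CpG-rich developmental promoters, and their start sites lie 26539 bp apart on chromosome 16. Dppa2 had 99.5 and 105 CPM in ESC and 6.74 and 4.39 in NPC. Dppa4 was lower in ESC, at 58.1 and 56.1 CPM, and had 4.29 and 6.05 in NPC. Dppa5a, an RNA-binding protein gene of early embryos, had 99.3 and 107 CPM in ESC and 5.82 and 6.05 in NPC. Ooep, an oocyte and embryo gene whose start site lies 10389 bp from that of Dppa5a, is also a member, at 98.6 and 86.4 CPM in ESC and 10.1 and 8.31 in NPC. Tcl1, a cofactor of AKT kinases, had 54.3 and 46.9 CPM in ESC and 2.45 and 3.09 in NPC. In each of these genes the libraries of a cell type lay close together beside the distance between cell types.

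The highest ESC level belonged to Lncenc1, a lncRNA of naive ESC on chromosome 13, with 220 and 244 CPM in ESC and 11.9 and 11.3 in NPC. Platr10, with a single CpG in its printed promoter, had 159 and 167 CPM in ESC and 8.27 and 7.60 in NPC. Zfp936, a KRAB zinc-finger gene, had 156 and 146 CPM in ESC and 6.43 and 7.48 in NPC. Among the other lncRNA genes, 4930461G14Rik had 146 and 143 CPM in ESC and 5.51 and 8.31 in NPC. Spp1 had 143 and 139 CPM in ESC and 6.13 and 8.43 in NPC. AU018091, the only member on the list for the two-cell-like state (24 windows), had 124 and 117 CPM in ESC and 3.37 and 6.05 in NPC. The direction of these differences is fixed by the choice of members, and the sizes are what the values add.

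By ratio the members led with Obox6, a homeobox gene of oocytes and early embryos, at 60.4 and 58.3 CPM in ESC and 1.53 and 0.831 in NPC, a fold of 50.2. The NPC values rest on 5 and 7 counts. Spic, an ETS-family transcription factor gene, had 48.3 and 46.9 CPM in ESC and 1.23 and 1.42 in NPC (4 and 12 counts), a fold of 35.9. AU018091 followed at 25.5, Zfp936 at 21.7 and Lncenc1 at 20.0 when genes were ordered by the ratio with 1 CPM added. Hormad2, a meiotic chromosome-axis gene and the only member on the germline list of 92, had 79.3 and 71.5 CPM in ESC and 8.58 and 6.88 in NPC. No member was on the lists for primed epiblast, neural progenitor, primitive endoderm, trophoblast, mesoderm, fibroblast, epithelial junction, imprinted, housekeeping, DNA methylation or amino acid metabolism genes.

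The 7 miRNA windows among the members fall at 4 loci. The matures are printed because members of a cluster can share a seed (bases 2 to 8, in capitals), and so a set of targets, as well as a promoter window. miR-200c and miR-141, of the epithelial miR-200 family, lie 405 bp apart on chromosome 6.
mmu-miR-200c-3p: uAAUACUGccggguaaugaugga
mmu-miR-141-3p: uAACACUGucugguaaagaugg
mmu-miR-181c-5p: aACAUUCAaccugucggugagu
mmu-miR-181d-5p: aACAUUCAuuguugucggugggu
mmu-miR-142a-5p: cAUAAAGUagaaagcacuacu
mmu-miR-142a-3p: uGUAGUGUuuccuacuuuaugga
mmu-miR-2139: aGCUGCGCugcuccugguaacugc
The matures miR-181c-5p and miR-181d-5p, from genes 174 bp apart on chromosome 8, have the same seed, ACAUUCA, while the seeds of 200c-3p (AAUACUG) and 141-3p (AACACUG) are not identical. Mir142, best known from blood cells, had 210 and 223 CPM of H3K4me3 in ESC and 11.9 and 12.5 in NPC, and Mir142b, 92 bp away on the opposite strand, shares nearly all of that window. Mir200c had 69.4 and 65.7 CPM in ESC and 9.80 and 7.95 in NPC. Mir181d had 77.2 and 79.3 CPM in ESC and 11.9 and 14.4 in NPC, close to the limit. Mir2139 lies 406 bp from the start of Klhdc7a, another member, and the mark in its window cannot be told apart from that of Klhdc7a.

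The limits cut through a continuous range. Just inside the ESC minimum were Gm13648 and Slc39a4 at 45.01 CPM and Acsbg2 at 45.3 in their lower ESC library, and just outside were 4930548H24Rik at 44.8, Ssc4d at 43.5 and Prss42 at 43.3. At the NPC limit Platr4 (14.7 CPM), Fbxo15 and Mir181d (both 14.4) were inside, and Sox15 (15.01), Nanog (15.2) and Rnf17 (15.3) outside. At the H3K27me3 limit Fam169b (48.8 CPM), AI463170 (43.2) and Angptl4 (39.9) were inside, and 2410137M14Rik (51.0), Klhdc7b (52.2) and Dppa3 (53.2) outside. Nanog and Dppa3, both naive pluripotency genes, thus missed membership by a small margin.

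H3K27me3 in NPC also chose the members, so counts of its change, calls included, are set beside the background and nothing is read from them. A lack of H3K27me3 gain here means only that NPC levels stayed below the limit of 50 CPM. Member medians were 8.28 and 10.8 CPM in the ESC libraries and 24.4 and 14.0 in NPC. Windows that kept H3K4me3 had nearly the same medians, 9.32, 12.4, 27.7 and 14.7, while the 34 windows that lost H3K4me3 with H3K27me3 rose from 19.7 and 20.1 to 127 and 144. Both NPC libraries lay above both ESC libraries at 56 of 97 members (29.6% of all windows and 53.4% of those that kept H3K4me3) and below at 5 (34.1%). By edgeR 41 of 80 tested members were called higher (22.9% of tested windows) and none lower (23.5%), where 48 had an unadjusted p below 0.05. Only 7 were called when libraries were scaled by their totals, where 6390 of 21863 windows were called in either direction. DESeq2 gave an adjusted p to 13 members and called 1, and it called 3589 of 11690 windows. The members' median log2 change of 1.06 was close to the 1.00 of windows that kept H3K4me3, and it was 0.12 over all windows. NPC replicate 1 was above NPC replicate 2 at 91 members (93.8%, against 81.2% of windows), and these 2 libraries differed more than any other replicate pair (chi-square per degree of freedom 6.67).

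Fam169b stood highest, at 2.07 and 13.9 CPM of H3K27me3 in ESC and 48.8 and 47.1 in NPC. Mir142b and Mir142, which share reads, followed with NPC means of 37.1 ± 3.89 and 35 ± 5.36 CPM (SD, n = 2), then Calhm2 at 33.4 ± 7.61 and AI463170 at 33.4 ± 13.9. At the other end were Gm13242 at 6.26 ± 5.25 CPM, EU599041 at 7.45 ± 5.13, Zfp345 at 7.85 ± 3.00, BC052688 at 8.41 ± 3.78 and Gm14124 at 9.68 ± 1.98. Of those low members, 4 (Gm13242, EU599041, Zfp345 and Gm14124) have the shared promoter sequences described above. Gdf3, whose H3K27me3 was 3.11 and 9.26 CPM in ESC and 33.3 and 18.5 in NPC, and Dppa2, at 2.07 and 7.72 CPM in ESC and 13.3 and 13.4 in NPC, had NPC libraries above both ESC libraries. Fbxo15 did not, at 11.4 and 23.2 CPM in ESC and 34.4 and 8.28 in NPC.

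IgG is the control for untargeted cleavage. The NPC limit of 50 CPM that chose the members is near their median NPC IgG of 44.9 CPM, so their NPC H3K27me3 against IgG is largely set by the choice. Both NPC H3K27me3 libraries were below the NPC IgG library in CPM at 95 of 97 members, at 88.2% of windows that kept H3K4me3 and at 76.2% of all windows. In the joint edgeR fit Fam169b alone was called above NPC IgG by at least 1 log2 unit, where 15.1% of all windows were. In ESC no member was called above IgG for H3K27me3, where 22.5% of windows were. At an unadjusted p below 0.05, 1 member was at least 1 log2 unit above IgG, as were 5817 of 23836 windows. Below it 52 members were called (21.8% of windows), as were 3415 of the 7841 windows that kept H3K4me3. The median log2 ratio was -1.56 in the members and -1.22 in those windows. The single IgG library per cell type was assumed to vary like the other groups.

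The PRC2 subunits were not used to choose members. In ESC, 0 of 97 members were called above IgG by edgeR for SUZ12 (5.67% of windows) or MTF2 (9.1%). For JARID2 no window at all was called in ESC (0.0%), so its 0 members are not a result about the members. At an unadjusted p below 0.05, 1, 0 and 4 members were at least 1 log2 unit above IgG for SUZ12, MTF2 and JARID2. Of 23836 windows, 2830, 3669 and 560 were. In fits of 1 antibody with IgG only, 1 of 97 members was called for SUZ12, where 2604 of 23284 windows were. The median log2 ratio to IgG in ESC was -0.41 for SUZ12, -0.55 for MTF2 and -0.07 for JARID2, where windows that kept H3K4me3 had 0.18, 0.33 and -0.04. In NPC no member was called for SUZ12 (0.0% of windows), JARID2 (0.0%) or MTF2 (0.0%), and the medians were -0.16, -0.02 and -0.20. Since no window at all was called in NPC, that count is not a result about the members. No member was at least 1 log2 unit above NPC IgG at an unadjusted p below 0.05. Of 23836 windows, 495, 140 and 650 were, for SUZ12, JARID2 and MTF2.

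**Figure D3:**
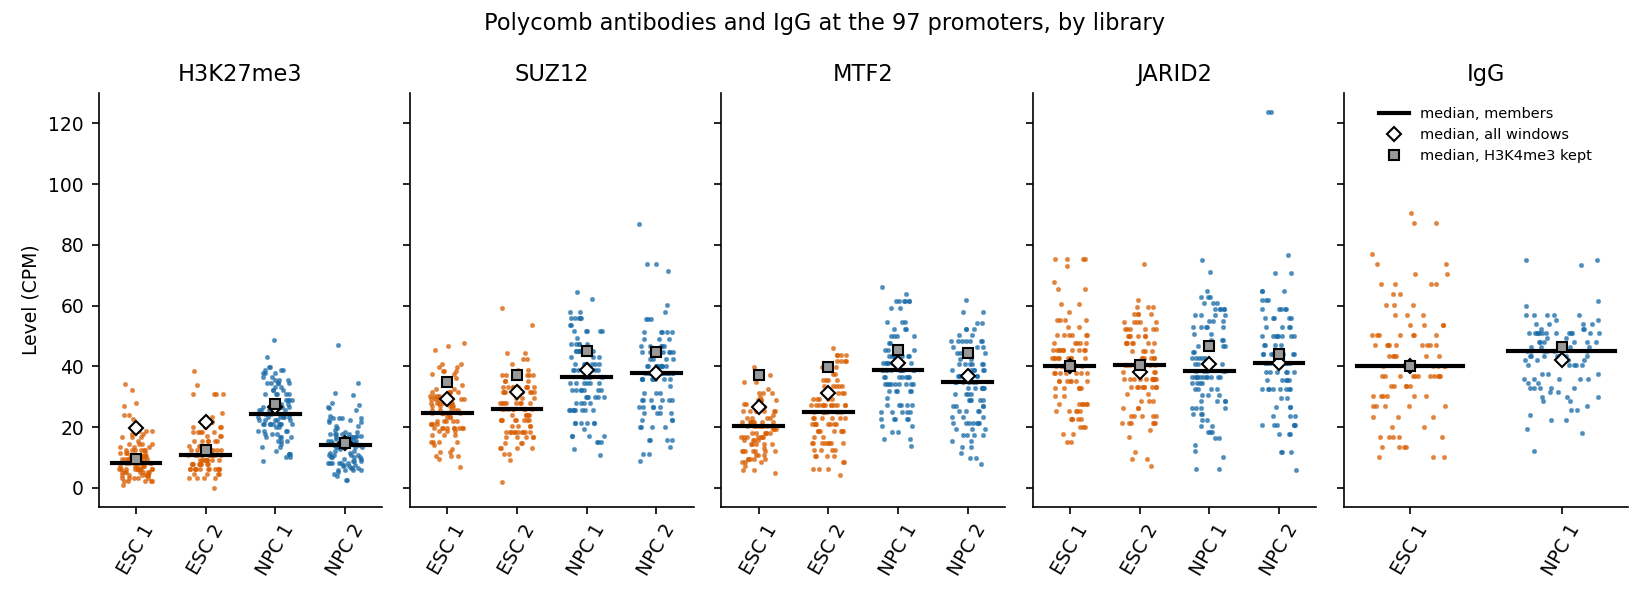
Level in CPM at the 97 members for H3K27me3, SUZ12, MTF2, JARID2 and IgG, 1 column per library with ESC in orange and NPC in blue; points are members, black bars their medians, diamonds the medians of all windows and squares those of windows that kept H3K4me3. In ESC the member medians of SUZ12 (24.5 and 25.9 CPM) and MTF2 (20.4 and 25.1) lie below both other medians, and in NPC they lie close to those of all windows.

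SUZ12 at the members had library medians of 24.5 and 25.9 CPM in ESC and 36.5 and 37.9 in NPC, while all windows had 29.1 and 31.5 in ESC and 38.6 and 37.9 in NPC. Both NPC libraries were above both ESC libraries at 58 members (42.4% of windows) and below at 6 (16.0%). By edgeR 3 of 90 tested members were higher in NPC (2.97% of tested windows) and 0 lower (13.1%), with 14 at an unadjusted p below 0.05. The share called higher was near that of all tested windows, so it is not a result about the members. DESeq2 gave none of the members an adjusted p. The median log2 change was 0.34 in the members and 0.07 over all tested windows. It was 0.28 in the 34 windows that lost H3K4me3 with at least 50 CPM of H3K27me3, and 0.05 where H3K4me3 was kept. In 24 of those 34 (70.6%, against 59.8% of members) both NPC libraries were above both ESC libraries. With scaling factors from background windows the medians of members and all windows became 0.06 and -0.21, with no member higher and 1 lower. In that setting 4214 of 21238 windows were called in either direction. Lrrc31, a leucine-rich repeat gene, had SUZ12 at 19.8 and 13.0 CPM in ESC and 45.1 and 46.8 in NPC (log2 1.16, SE 0.37, edgeR adjusted p = 0.014). Folr1, the folate receptor gene, had 19.8 and 31.5 CPM in ESC and 58.0 and 55.7 in NPC (log2 0.96, SE 0.32, adjusted p = 0.022). Zfp750 had 37.3 and 27.8 CPM in ESC and 51.5 and 86.9 in NPC (log2 0.78, SE 0.28, adjusted p = 0.037). The counts behind these values ran from 7 to 39. NPC IgG at the 3 genes was 55.4, 44.9 and 53.9 CPM, so SUZ12 in NPC stood near the control. No fit that left out 1 library kept all of these calls. The log2 change then ran from 0.88 to 1.56 at Lrrc31, from 0.61 to 1.19 at Folr1 and from 0.35 to 1.09 at Zfp750.

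MTF2 had library medians of 20.4 and 25.1 CPM in ESC and 38.7 and 34.8 in NPC, against 26.4, 31.3, 41.0 and 36.7 over all windows. Both NPC libraries were above both ESC libraries at 64 members (43.6% of windows), and at none were they below (16.3%). By edgeR 7 of 84 tested members were higher in NPC (3.28% of tested windows) and 0 lower (8.89%), with 18 at an unadjusted p below 0.05 and no adjusted p from DESeq2. The median log2 change was 0.46, against 0.07 over all tested windows. With factors from background windows it was -0.07 against -0.46, so its direction depends on the scaling. Such factors shift all windows by nearly the same amount, so the members' place above all windows could not change. Spic had the largest change, from 6.01 and 10.4 CPM of MTF2 in ESC to 47.8 and 27.1 in NPC (log2 1.95, SE 0.47, adjusted p = 0.0024). IgG at Spic was 13.4 CPM in ESC and 32.9 in NPC, so the control differed in the same direction there. Dennd2c, a regulator of RAB GTPases, went from 8.41 and 20.9 CPM to 50.1 and 44.5 (log2 1.55, SE 0.41, adjusted p = 0.0056). Eng, the endoglin co-receptor of TGF-beta ligands, went from 15.6 and 18.8 CPM to 54.6 and 48.3 (log2 1.31, SE 0.38, adjusted p = 0.011). 1700028I16Rik, with the most CpG among the matched members, went from 16.8 and 14.6 CPM to 50.1 and 48.3 (log2 1.32, SE 0.39, adjusted p = 0.013). 2310040G24Rik had 20.4 and 14.6 CPM in ESC and 63.7 and 38.7 in NPC (log2 1.16, SE 0.37, adjusted p = 0.023), and Igfals and Rsf1os1 also passed. IgG was 33.5 CPM in ESC and 50.9 in NPC at Eng, and 90.5 and 56.9 at Igfals. At both genes MTF2 lay below the control in ESC and near it in NPC. In none of the 7 did the libraries of ESC and NPC overlap, which adds no support, since the 7 were called on these same libraries. All 7 calls were lost without ESC replicate 1 or without NPC replicate 1, 3 were left without NPC replicate 2, and 4 with a replicate block.

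JARID2 did not separate the cell types at the members. Library medians were 40.3 and 40.4 CPM in ESC and 38.6 and 41.2 in NPC, and the median log2 change was 0.01. Both NPC libraries were above both ESC libraries at 17 members (19.8% of windows) and below at 14 (17.9%). By edgeR 0 of 87 tested members were higher (0.0792% of tested windows) or lower (0.75%), 4 had an unadjusted p below 0.05, and DESeq2 called none of the 2 members it gave an adjusted p. IgG medians were 40.2 CPM in ESC and 44.9 in NPC, so JARID2 counts stood at the control level in both cell types.

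**Figure D4:**
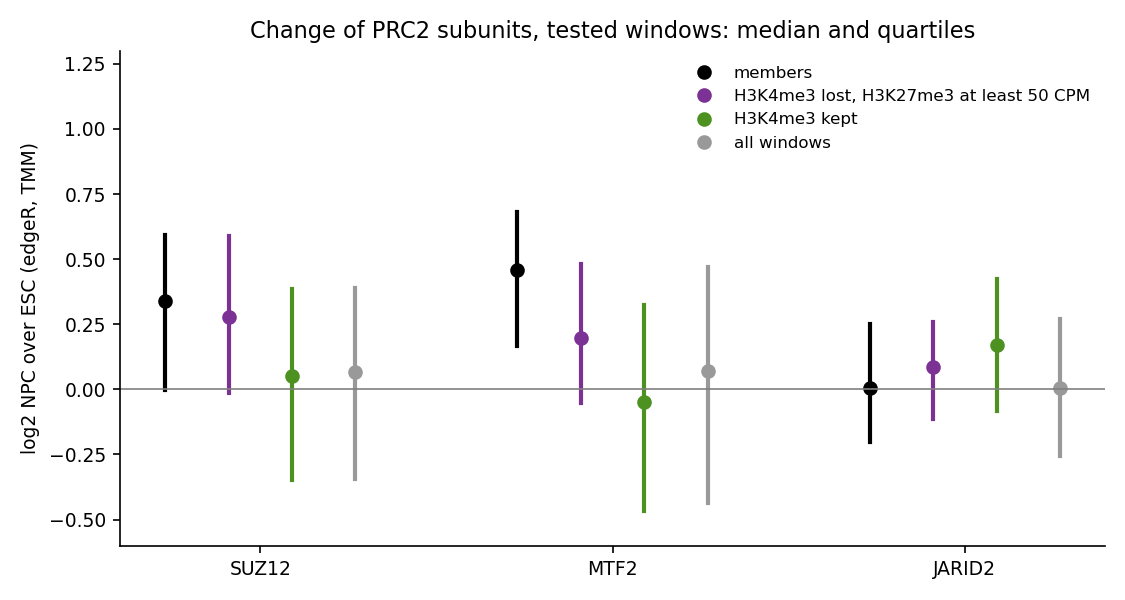
Median (points) and quartiles (bars) of the log2 change, NPC over ESC, of SUZ12, MTF2 and JARID2 by edgeR with TMM scaling, for members and 3 comparison groups of tested windows. Members have medians of 0.34, 0.46 and 0.01, and the place of 0 on this axis depends on the scaling, as given in the text.

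As the neighbour of each member, the nearest window that was no member and overlapped none was taken. These were 86 distinct windows at a median distance of 29730 bp. Members were thus left out as neighbours but count among all windows. By edgeR 42 of 78 tested neighbours had lower H3K4me3 in NPC (53.8%, against 29.2% of all tested windows) and 10 higher (12.8%, against 26.7%), with a median log2 change of -0.49 where all windows had -0.02. Of the 44 neighbours with a mean of at least 45 CPM in ESC, 31 (70.5%) had a mean of at least 45 in NPC and 2 (4.55%) were below 15. Of all 9080 windows with such an ESC mean, members included, 89.5% had at least 45 CPM in NPC and 1.91% were below 15. The difference between these shares was not tested. They are not like for like, since members could be among the 9080 windows but not among the neighbours. Members next to each other, such as Dppa2 with Dppa4, Dppa5a with Ooep, Gpa33 with Dusp27 (2561 bp apart) and Fam169b with Pgpep1l (9605 bp apart), lost the mark together by the choice of members.

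**Figure D5:**
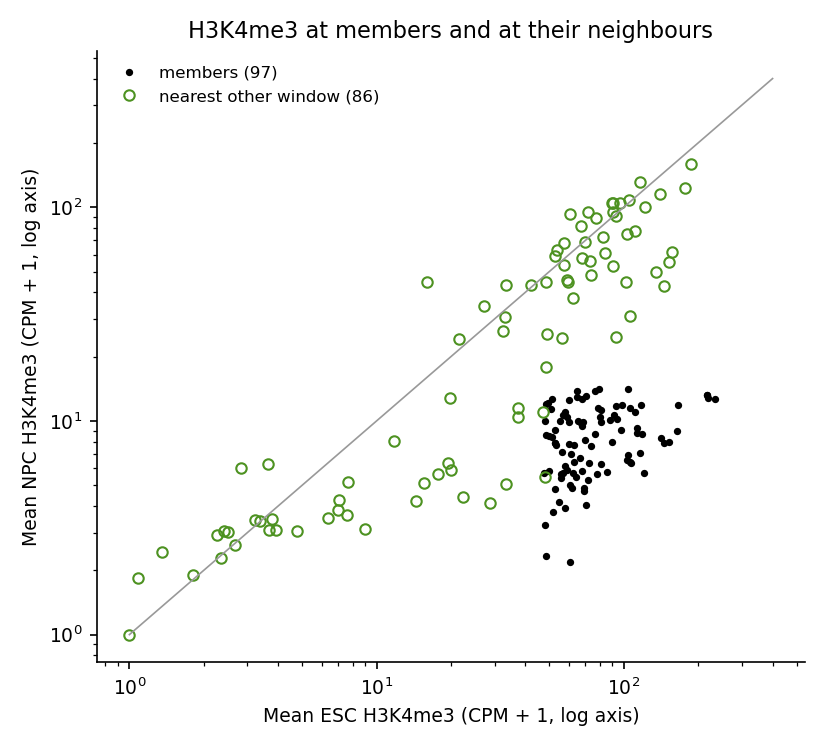
Mean H3K4me3 in NPC against mean H3K4me3 in ESC (CPM with 1 added, log axes), with the line of equality. Black points are the 97 members, and green circles the 86 nearest windows that are no members and overlap none. Of 44 neighbours with at least 45 CPM in ESC, 31 stay at or above 45 CPM in NPC, while the members lie below 15 CPM by choice.

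As a check of the labels, 22 of 27 neural progenitor genes passed toward higher H3K4me3 in NPC and 2 toward lower. The fibroblast list had no window at the ESC minimum, and the mesoderm, endothelial and blood list had 3 of 28. Of 12 tested fibroblast windows, 5 passed toward higher H3K4me3 in NPC and 3 toward lower, with a median log2 change of 0.54. For the mesoderm, endothelial and blood list these were 5 and 14 of 25, with a median of -0.67. Total counts ran from 3264267 to 8425292 for H3K4me3, from 647615 to 1569812 for H3K27me3, from 339591 to 857691 for the PRC2 subunits, and were 298458 and 667898 for IgG. At these depths 3 counts stand for at most 0.919 CPM of H3K4me3 but 10.1 CPM of ESC IgG, so differences between low PRC2 levels and IgG were less firmly measured than H3K4me3. In bulk cells, fewer cells carrying a mark and less mark per cell cannot be told apart.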

How the data were processed

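Counts of CUT&RUN reads in windows of 5000 bp around 24467 RefSeq start sites were taken as the authors deposited them, whole numbers with no normalization, for 22 libraries. The submitters' processing notes name Bowtie2 2.3.4.3, Picard 2.19 and the build mm10. How reads were filtered and counted, and what was done with duplicates, is not given in the sources used. Drosophila spike-in DNA was added per the labels' protocols, but spike-in counts were not used here. Gene symbols turned into dates (27, 1 of them a member, Septin1) were restored from their transcripts. For 94 members the transcript was found in the RefSeq table, 89 with the same symbol. The labels list the libraries as replicates without naming separate cultures, so p-values measure the spread between these libraries, which may be technical. The 2 NPC JARID2 libraries agreed within sampling noise (chi-square divided by its degrees of freedom, 0.998) and were kept apart, and JARID2 was also tested with them summed.

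Members were found from CPM over the 24467 windows. Changes were tested per antibody over 4 libraries with edgeR 4.0.16 (R 4.3.3) quasi-likelihood tests, TMM scaling, filterByExpr at a minimum count of 10 and Benjamini-Hochberg adjustment over all tested windows, called below 0.05. Levels over IgG came from 1 fit of all 22 libraries, with calls from 1 log2 unit upward. Tests were tried on simulated counts first. DESeq2 1.42.0, other scalings, filters, a replicate block, windows that overlap no other and leaving out each library were the alternatives. Promoters and mature miRNAs come from RefSeq (GRCm38.p6). The genes named are those in the gene lists, the 10 highest in ESC H3K4me3, the 5 with the largest ratio, up to 5 per subunit and direction by adjusted p, those above IgG, the 5 highest and lowest in NPC H3K27me3, and the 3 nearest each limit. The members and lists were chosen with earlier results of these data known. PCR copies are not separate molecules, and a floor of 3 counts covers counting error only.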

Additional observations from a re-analysis of the deposited data

How the results depend on the processing

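Member calls of SUZ12 and MTF2 rest on few counts and on the scaling. SUZ12 calls went from 3 to 16 with library totals and to 1, toward lower, with TMM factors from background windows. Over all 21238 tested windows, calls in either direction went from 3416 to 4422 and 4214. MTF2 calls went from 7 to 11 and 1 under those settings, and to 4 with a replicate block. Over all 20885 tested windows they went from 2540 to 3546, 2945 and 507. H3K27me3 calls went from 41 to 7 with library totals, to 1 with DESeq2 and to 2 at a minimum count of 30, where only 13 and 2 members were tested. Over all windows they went from 10143 to 6390 of 21863, and were 3589 of 11690 and 4530 of 9329. Leaving out each library in turn gave 0 to 2 calls for SUZ12, 0 to 7 for MTF2, 15 to 33 for H3K27me3 (15 without ESC replicate 1) and 0 for JARID2, and 0 to 1 members above ESC IgG for H3K27me3 (1 without ESC replicate 2). A fit of SUZ12 with IgG only called 1 member above ESC IgG, where it called 2604 of 23284 windows. A minimum of 60 CPM of H3K4me3 in ESC left 57 of the 97 members, and the other settings of the rule gave 66 to 105. The replicate numbers are shared between cell types, but same-numbered libraries did not deviate together (correlations from -0.207 to 0.0127), and the replicate block changed no other call by over 1.5 times (SUZ12 3, JARID2 0, H3K27me3 35). With the crossed pairing, added after seeing the data, MTF2 had 7 calls and H3K27me3 had 45. Over all tested windows the crossed pairing called 4086 for MTF2 and 10982 for H3K27me3. The replicate block called 3375 for SUZ12, 125 for JARID2 and 7989 for H3K27me3. In all, 79 recomputed values kept their number of calls or stayed within 1.5 times, 59 of them 0 in both settings, while 13 were weaker, 4 stronger and 1 moved. These labels compare numbers of calls, not which members were called. The 2 SUZ12 calls at a minimum count of 30 shared 0 members with the first setting. The 3 genes named for SUZ12 each passed in 5 of 9 alternatives. Of 10 alternatives for MTF2, Spic passed in 8, Dennd2c in 7, Eng and 1700028I16Rik in 6 and 2310040G24Rik in 5. These 8 genes kept their sign in all of them. DESeq2 gave no member an adjusted p for SUZ12 and MTF2, and at a minimum count of 30 no member was tested for MTF2, so those settings have no value.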
